A study of Rattus norvegicus with 6 samples.

Results

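Integrins are the transmembrane receptors, each made of 1 alpha and 1 beta chain, that tie the cytoskeleton of a cell to the matrix around it. Laminins are matrix proteins built from 1 alpha, 1 beta and 1 gamma chain, and they form the sheet of the basement membrane that surrounds every heart muscle cell. In heart muscle the α7 chain paired with β1 is known as a main laminin receptor, and α2-containing laminin as a main laminin of the basement membrane. The transcripts of both families were followed in neonatal rat ventricular myocytes after knockdown of Decr1, which encodes a mitochondrial enzyme that helps to break down unsaturated fatty acids. The genes were taken by symbol, as every integrin alpha, integrin beta 1 to 8 and laminin chain in the deposited expression table. This gave 37 of 30001 features, of which 26 were integrins and 11 laminins. Of these, 27 had a mean of at least 1 FPKM over all libraries and were tested, and the rest are described by their values.

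The study had 3 libraries of myocytes that had received a short hairpin RNA against Decr1 and 3 of control myocytes, labelled NC. All cells came from Sprague-Dawley rats in the first 3 days after birth. After use of a cardiomyocyte isolation kit, the cells still in the supernatant after 2 h of culture were moved to another dish and grown on. The labels give no separate cultures or animals for the libraries, so the p-values rest on the spread among these 6 libraries alone, and that spread may be technical. Expression is given as FPKM, the fragments on a gene scaled by the gene's length and the library's size. A log2 fold change is the knockdown mean of log2(FPKM + 1) less the control mean, so changes of low genes are understated. A gene is said to have risen or fallen where the adjusted p was under 0.05 (limma with Benjamini-Hochberg adjustment over all 11975 features tested).

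The depths recovered from the table were 35290664 to 37413240 fragments in the knockdown libraries and 39659092 to 40108670 in the controls. Decr1 stood at 3.33, 1.24 and 2.36 FPKM in the knockdown libraries, against 43.6, 44.3 and 42.8 FPKM in the controls, which fits the labels (log2 fold change -3.80, SE 0.19, adjusted p = 3.23e-08). All 15 cardiomyocyte markers were above the filter, and 5 rose and 10 fell. Their summed level was 13648 to 14610 FPKM in knockdown libraries and 19734 to 20412 FPKM in controls. Much of this sum is 1 gene, Nppa, which averaged 5010 FPKM in the knockdown and 11702 FPKM in controls. The sum therefore gives no common direction for the list. All 12 fibroblast markers fell, to a summed 644 to 739 FPKM in knockdown libraries, against 7475 to 8318 FPKM in controls. Of 10 epicardial and mesothelial markers 9 were tested, and all 9 fell. The list summed to 11.5 to 13.9 FPKM in knockdown libraries and 218 to 239 FPKM in controls. Among 16 macrophage and leukocyte markers 9 were tested, of which 7 fell and 0 rose. The sums were 442 to 501 FPKM in knockdown libraries and 674 to 749.6 FPKM in controls. Smooth muscle and pericyte markers went both ways, with 3 of 11 higher and 7 lower. They summed to 4635 to 5049 FPKM in knockdown libraries, against 2920 to 3194 FPKM in controls. Most of this sum is Acta2, which averaged 3481 FPKM in the knockdown and 1672 FPKM in controls. The 11 endothelial markers summed to 24.3 to 26.6 FPKM in knockdown libraries and 21.99 to 23.1 FPKM in controls. Of the 7 tested, 3 rose and 3 fell. Of 9 Schwann and neuronal markers 3 were tested and 2 fell, and of 8 platelet and megakaryocyte markers 2 were tested and 1 fell. None tested in either list rose. These counts stand beside 80.8% of all features tested that were called, and markers under the filter are given no direction. Mfap5, Msln, Wt1, Upk3b, Bnc1, Kcnj8 and S100b passed the filter only through the controls, so their being tested and their fall go together. Cd3e, Gp1bb and Tubb1 were at 0 in every library. Whether these shifts in other cells' markers had a part in the results below was not tested, and in bulk RNA fewer cells of a type and less RNA per cell cannot be told apart.

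Across the 27 integrin and laminin genes tested, 11 rose and 12 fell. That is 85.2% called, where 80.8% of all features tested were called. The shares in each direction were 40.7% higher and 44.4% lower among these genes, against 48.4% higher and 32.4% lower among all features. The rises include Itga2, which passed the filter only through its knockdown values. The groups did not overlap for 25 of the 27, or 92.6%, against 82.3% of all features. Being called at all therefore sets these genes little apart from the rest of the transcriptome, and the size and direction within each chain class carry the description. Their median log2 fold change was -0.16, where that of all features was 0.14. After median-ratio scaling of the libraries 8 rose and 15 fell, and the medians were -0.28 for these genes and 0.0022 for all features. Small changes are therefore to be read against a shift of about 0.14 that the scaling alone can take away.

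**Figure D1:**
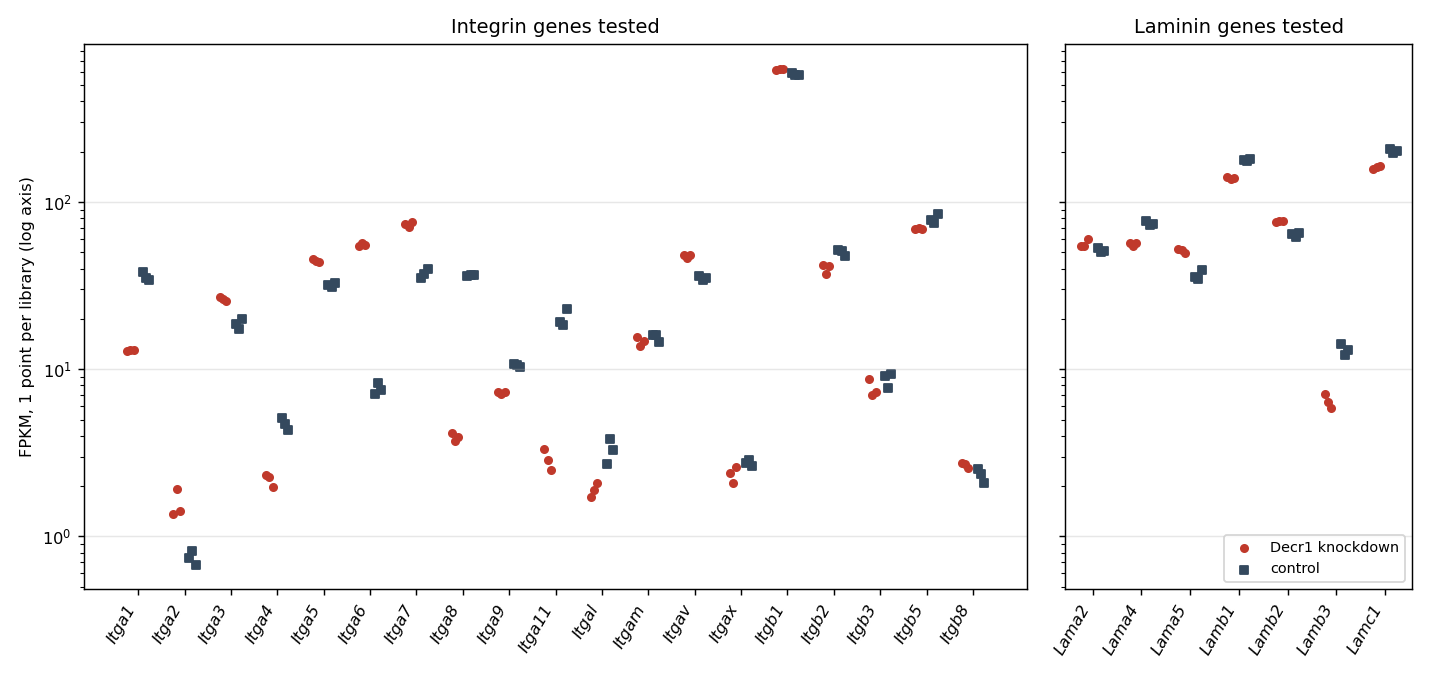
FPKM of 26 of the 27 integrin and laminin genes tested, on a log axis, with 1 point per library, Decr1 knockdown (circles) left of control (squares). Itga6 stands far higher and Itga8, Itga11 and Itga1 far lower in all 3 knockdown libraries than in all 3 controls, while Itgb1 tops both groups at 574 to 626 FPKM.

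All 3 laminin-binding alpha chains rose. Itga6, whose product pairs with β1 or β4, had 54.3, 56.8 and 55.4 FPKM in the knockdown libraries and 7.13, 8.29 and 7.54 FPKM in the controls. The groups lay far apart, on 14138 to 15375 reads in knockdown libraries and 2064 to 2378 reads in controls. The mean was 55.5 ± 1.26 FPKM in the knockdown and 7.66 ± 0.585 FPKM in controls (SD, n = 3 each), a ratio of 7.25 (log2 fold change 2.71, SE 0.06, adjusted p = 1.71e-10 by limma). No other integrin or laminin gene tested had a larger rise, and this order held on the log2 scale and in the ratio of means. Itga7, the muscle laminin receptor chain, had 73.8, 71.1 and 76.4 FPKM in the knockdown libraries, against 35.2, 37.1 and 39.9 FPKM in the controls. Each knockdown library was well above each control, at 1.97 times the control mean (log2 fold change 0.96, SE 0.06, adjusted p = 9.75e-08 by limma). Itga3, a laminin receptor chain best known from epithelia, stood at 27.1, 26.5 and 25.7 FPKM in the knockdown libraries and at 18.7, 17.3 and 20.1 FPKM in the controls. This smaller rise also left the groups apart (log2 fold change 0.48, SE 0.06, adjusted p = 3.54e-05 by limma). Itga7 was 1.33 ± 0.0691 times Itga6 in FPKM in the knockdown libraries and 4.90 ± 0.406 times in the controls, so the 2 transcripts came close to each other in the knockdown. All 3 rises kept their call after median-ratio scaling, at 2.55 for Itga6, 0.80 for Itga7 and 0.32 for Itga3, and Itga3 stood at 0.31 after quantile normalization.

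The collagen receptor chains went both ways, with the abundant ones falling. Itga11, a chain of fibroblastic cells that binds fibrillar collagen, had 3.35, 2.86 and 2.49 FPKM in the knockdown libraries and 19.1, 18.4 and 22.9 FPKM in the controls. Each knockdown library was below each control, and the mean was 14.4% of the control mean (log2 fold change -2.44, SE 0.10, adjusted p = 9.12e-09 by limma). Itga1, which binds basement membrane collagen, stood at 12.9, 13.1 and 13.1 FPKM in the knockdown libraries, against 37.9, 35.3 and 34.2 FPKM in the controls. The knockdown libraries were nearly equal, and their mean was 36.4% of the control mean (log2 fold change -1.39, SE 0.05, adjusted p = 5.53e-09 by limma). Itga2, the collagen receptor chain of platelets and epithelia, was low in both groups but rose, with 1.37, 1.93 and 1.41 FPKM in the knockdown libraries and 0.745, 0.817 and 0.678 FPKM in the controls. Its control mean of 0.747 FPKM was under the filter, so Itga2 was tested only through its knockdown values. It rested on 364 to 528 reads in knockdown libraries and 199 to 237 reads in controls (log2 fold change 0.55, SE 0.10, adjusted p = 0.000478 by limma). In the RefSeq annotation Itga2 and Itga1 are neighbouring protein-coding genes, and they changed in opposite directions. Itga10 had 18 to 25 reads in knockdown libraries and 1 to 20 reads in controls and was not tested. Beside the falls of Itga11 and Itga1 and the rise of Itga2, all 12 fibroblast markers fell, and their median change was -3.40 on the log2 scale. A link to these genes was not tested.

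Among the chains that recognise the RGD motif of fibronectin and related ligands, Itga5 and Itgav rose and Itga8 fell. Itga8, whose product with β1 binds nephronectin, showed the largest fall of any integrin or laminin gene tested on the log2 scale. It stood at 4.15, 3.74 and 3.95 FPKM in the knockdown libraries and at 36.3, 36.6 and 36.6 FPKM in the controls. The controls were nearly identical, with a coefficient of variation of 0.557%, and 10.8% of their mean was left in the knockdown (log2 fold change -2.92, SE 0.05, adjusted p = 6.7e-11 by limma). Npnt, the nephronectin gene, was looked up afterwards for this pairing and stood at 4.37 ± 0.320 FPKM in the knockdown and 2.93 ± 0.545 FPKM in controls, a rise. Itga5, the fibronectin receptor chain, had 45.7, 44.1 and 43.5 FPKM in the knockdown libraries and 31.7, 31.0 and 32.6 FPKM in the controls (log2 fold change 0.47, SE 0.05, adjusted p = 4.33e-06 by limma). Itgav, which pairs with several beta chains, had 48.5, 46.2 and 48.0 FPKM in the knockdown libraries, against 36.0, 34.3 and 35.2 FPKM in the controls (log2 fold change 0.43, SE 0.04, adjusted p = 8.71e-06 by limma). In both of these genes the groups were apart by several times the spread within a group, and both rises were smaller after median-ratio scaling, at 0.31 for Itga5 and 0.26 for Itgav. Itga2b, the platelet chain, was at 0.0723 to 0.245 FPKM in knockdown libraries and 0.277 to 0.389 FPKM in controls, on at most 57 reads, and was not tested.

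Both members of the α4 and α9 pair fell. Itga4, a receptor chain for VCAM1 and fibronectin, had 2.34, 2.28 and 1.97 FPKM in the knockdown libraries and 5.11, 4.67 and 4.32 FPKM in the controls (log2 fold change -0.83, SE 0.08, adjusted p = 5.12e-06 by limma). Itga9, a receptor chain for tenascin-C, had 7.33, 7.13 and 7.29 FPKM in the knockdown libraries and 10.7, 10.5 and 10.4 FPKM in the controls (log2 fold change -0.48, SE 0.05, adjusted p = 1.52e-05 by limma). Neither gene had overlapping groups.

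Of the leukocyte integrins, Itgal and Itgb2 fell. Itgb2 encodes the beta chain shared by the leukocyte receptors and stood at 41.9, 37.0 and 41.4 FPKM in the knockdown libraries, against 51.3, 50.7 and 47.5 FPKM in the controls (log2 fold change -0.31, SE 0.06, adjusted p = 0.000684 by limma), and its value was -0.47 after median-ratio scaling. Itgal, its lymphocyte partner, averaged 1.90 ± 0.178 FPKM in the knockdown and 3.28 ± 0.560 FPKM in controls (log2 fold change -0.56, SE 0.10, adjusted p = 0.000573 by limma). Itgam, the myeloid partner, had 15.6, 13.9 and 14.7 FPKM in the knockdown libraries and 15.96, 16.1 and 14.6 FPKM in the controls. These groups overlapped, and the gene did not pass the test (log2 fold change -0.07, SE 0.06, adjusted p = 0.305 by limma). Itgax did not pass either, at 2.36 ± 0.251 FPKM in the knockdown and 2.74 ± 0.120 FPKM in controls (adjusted p = 0.0874 by limma). After median-ratio scaling both Itgam and Itgax were called lower, at -0.23 and -0.28. The level of Itgax rests on an implied gene length of 15.9 kb, which is long for this family. Itgad, next to Itgam and Itgax on the chromosome, had 0 to 1 reads in knockdown libraries and 0 to 3 reads in controls, and Itgb7 had 3 to 9 reads in knockdown libraries and 6 to 11 in controls. Itgae was at 0.996, 0.890 and 1.23 FPKM in the knockdown libraries and at 0.695, 0.774 and 0.745 FPKM in the controls, just under the filter. Macrophage and leukocyte markers stood beside these genes with a median log2 fold change of -0.72 over the 9 tested, of which 7 fell.

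Itgb1, the beta chain that most of the alpha chains above pair with, was the most abundant gene of either family. It had 614, 623 and 626 FPKM in the knockdown libraries and 595, 574 and 576 FPKM in the controls, on 84471 to 90927 reads. The groups did not overlap, but the difference was small (log2 fold change 0.09, SE 0.04, adjusted p = 0.0393 by limma). Its call was lost under 9 of 14 alternatives, and after median-ratio scaling the value was -0.070 (adjusted p = 0.12). After quantile normalization it was 0.34 and called higher, so the size of its change depended on the scaling. Itgb5, a partner of αv, fell, with 68.9, 70.2 and 68.9 FPKM in the knockdown libraries and 78.0, 75.0 and 84.5 FPKM in the controls (log2 fold change -0.19, SE 0.05, adjusted p = 0.00607 by limma). Either scaling of the libraries, by median ratio or by quantiles, gave a larger fall of -0.35. The other αv partners tested did not pass the test. Itgb3 stood at 7.68 ± 0.888 FPKM in the knockdown and 8.73 ± 0.863 FPKM in controls (adjusted p = 0.116), and its groups overlapped, but it was called lower, at -0.31, after median-ratio scaling. Itgb8 stood at 2.67 ± 0.101 FPKM in the knockdown and 2.33 ± 0.221 FPKM in controls (adjusted p = 0.111 by limma). Itgb6 and Itgb4 were under the filter. Itgb4, the beta chain of the laminin receptor of epithelial hemidesmosomes and the other partner of α6, had 0.167, 0.133 and 0.123 FPKM in the knockdown libraries and 0.296, 0.380 and 0.511 FPKM in the controls. The rise of Itga6 had no counterpart in Itgb4, which rested on 27 to 39 reads in knockdown libraries and 74 to 128 reads in controls. Itgb6 had 8 to 14 reads in knockdown libraries and 39 to 42 reads in controls.

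**Figure D2:**
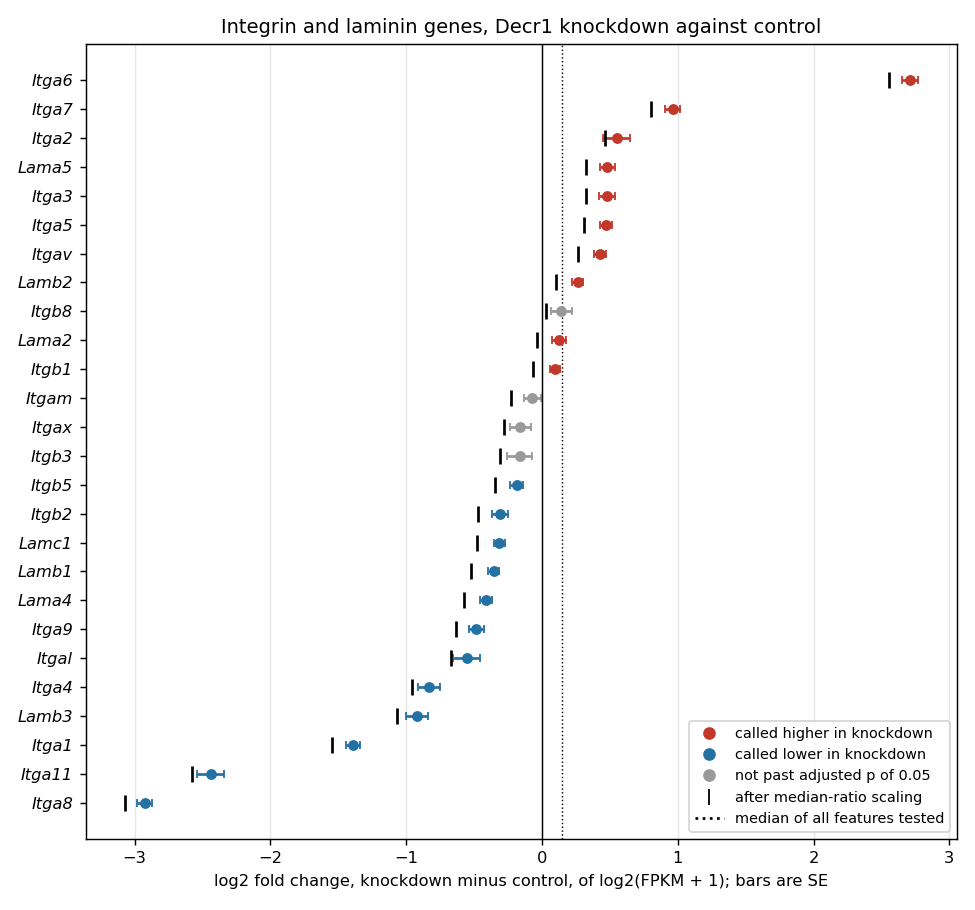
Log2 fold change, knockdown minus control, of 26 of the 27 integrin and laminin genes tested, ordered by size, with SE bars, beside the value after median-ratio scaling (vertical ticks) and the median of all features tested (dotted line, 0.14). Itga6 has the largest rise at 2.71 and Itga8 the largest fall at -2.92, and the values for Itgb1 and Lama2 change sign after scaling.

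The 8 laminin genes tested were all called as deposited, where 80.8% of all features were called. Of these genes 4 were higher and 4 lower, and after median-ratio scaling 2 rose and 4 fell. Lamb3, which encodes the β3 chain of epithelial basement membranes, fell, with 7.11, 6.40 and 5.85 FPKM in the knockdown libraries and 14.1, 12.2 and 13.01 FPKM in the controls (log2 fold change -0.92, SE 0.08, adjusted p = 1.93e-06 by limma). Lama3, the gene of another chain known from epithelia, was under the filter in both groups, at 0.211, 0.243 and 0.297 FPKM in the knockdown libraries and 0.212, 0.230 and 0.272 FPKM in the controls, and its groups overlapped.

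Lamc1 encodes the γ1 chain of most laminins and was the most abundant laminin gene in both groups. It fell, with 158, 161 and 165 FPKM in the knockdown libraries and 206, 195 and 201 FPKM in the controls (log2 fold change -0.31, SE 0.04, adjusted p = 4.47e-05 by limma). After median-ratio scaling and quantile normalization its fall was larger, at -0.48 and -0.53. Lamc3 had at most 2 reads in any library.

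Of the other beta chains, Lamb1 fell and Lamb2 rose. Lamb1, the widespread β1 chain, had 141, 137 and 139 FPKM in the knockdown libraries and 178, 175 and 182 FPKM in the controls (log2 fold change -0.36, SE 0.04, adjusted p = 9.9e-06 by limma), and after quantile normalization its value was -0.57. Lamb2, the β2 chain known from the neuromuscular junction and the kidney filter, had 76.1, 76.6 and 76.7 FPKM in the knockdown libraries and 64.0, 61.6 and 65.2 FPKM in the controls (log2 fold change 0.26, SE 0.04, adjusted p = 0.000194 by limma). The Lamb2 call was lost after median-ratio scaling, where the value was 0.10 (adjusted p = 0.0501), and after quantile normalization (0.09).

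The alpha chains, which carry the main receptor-binding part of a laminin, shifted towards Lama5 and away from Lama4. Lama5 had 52.3, 51.5 and 49.4 FPKM in the knockdown libraries and 35.6, 34.4 and 39.0 FPKM in the controls (log2 fold change 0.48, SE 0.06, adjusted p = 1.78e-05 by limma). Lama4, the chain of vessel and fat basement membranes, had 56.8, 54.3 and 56.9 FPKM in the knockdown libraries and 77.1, 73.1 and 74.1 FPKM in the controls (log2 fold change -0.41, SE 0.04, adjusted p = 1e-05 by limma). Neither gene had overlapping groups, and both kept their call after median-ratio scaling, at 0.32 for Lama5 and -0.57 for Lama4. Lama2, the muscle chain, moved little, with 54.7, 54.3 and 59.7 FPKM in the knockdown libraries and 53.3, 50.02 and 50.9 FPKM in the controls (log2 fold change 0.13, SE 0.05, adjusted p = 0.044 by limma). That call was lost under 9 of 14 alternatives, and after median-ratio scaling the value was -0.036. Lama1, the chain of the early embryo, was under the filter over all libraries but lay well apart between groups. It had 0.0645, 0.0161 and 0.00855 FPKM in the knockdown libraries and 1.22, 0.877 and 0.923 FPKM in the controls, on 24, 6 and 3 reads in the knockdown libraries and 484, 346 and 368 reads in the controls. Without the filter on low values Lama1 was called lower (log2 fold change -0.96, adjusted p = 7.11e-05 by limma), as were Itga2b, Itgb4 and Itgb6, while Itgae was called higher.

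Promoter sequences from RefSeq (GRCr8, from 250 bases before to 50 bases after the annotated start) were found for 28 of the 37 genes. Shown are those of the 2 tested genes with the largest log2 falls, and of 1 receptor chain and 1 laminin chain that rose. This sets genes that moved in opposite directions side by side. They are Itga8 (chr17:80410584-80410883, minus strand), Itga11 (chr8:72041182-72041481, plus strand), Itga3 (chr10:80518852-80519151, minus strand) and Lama5 (chr3:187695925-187696224, minus strand). Each reads 5′ to 3′ along the gene, and capitals mark matches on either strand to the 5 motifs searched.
Itga8: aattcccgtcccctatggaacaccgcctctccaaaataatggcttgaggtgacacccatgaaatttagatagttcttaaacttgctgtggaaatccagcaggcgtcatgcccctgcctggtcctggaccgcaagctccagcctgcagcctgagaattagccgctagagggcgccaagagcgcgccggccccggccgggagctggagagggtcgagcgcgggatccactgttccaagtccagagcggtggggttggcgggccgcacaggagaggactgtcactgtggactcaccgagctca
Itga11: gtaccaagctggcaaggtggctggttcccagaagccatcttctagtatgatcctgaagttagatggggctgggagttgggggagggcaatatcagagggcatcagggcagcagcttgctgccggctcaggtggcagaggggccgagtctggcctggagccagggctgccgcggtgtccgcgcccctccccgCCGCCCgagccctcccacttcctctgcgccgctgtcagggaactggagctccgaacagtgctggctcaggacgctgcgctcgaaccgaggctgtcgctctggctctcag
Itga3: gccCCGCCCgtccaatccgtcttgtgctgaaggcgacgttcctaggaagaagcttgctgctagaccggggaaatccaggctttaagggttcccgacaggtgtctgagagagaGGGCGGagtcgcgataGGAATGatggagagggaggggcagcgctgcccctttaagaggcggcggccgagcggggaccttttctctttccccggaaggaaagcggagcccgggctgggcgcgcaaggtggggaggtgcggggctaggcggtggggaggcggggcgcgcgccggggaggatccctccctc
Lama5: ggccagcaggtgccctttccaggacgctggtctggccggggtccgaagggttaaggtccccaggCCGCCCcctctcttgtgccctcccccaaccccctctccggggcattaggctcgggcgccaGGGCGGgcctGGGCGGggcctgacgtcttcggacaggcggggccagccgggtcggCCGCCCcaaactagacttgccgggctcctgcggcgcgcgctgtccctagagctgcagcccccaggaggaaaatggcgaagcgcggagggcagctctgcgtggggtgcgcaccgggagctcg
The motifs were TATAAA, the GC box GGGCGG, the AP-1 motif TGANTCA, the TEAD motif GGAATG and the CArG box. The windows of Lama5 and Itga3, which rose, held 4 and 2 GC boxes, that of Itga11 held 1 and that of Itga8 held none of the 5 motifs. These 4 windows give no rule, since GC boxes were also in the windows of Itga9, Lamb1 and Lamc1, which fell. Itga3 was not picked by size of change, since Itga2, whose window also held a GC box, rose more. Itga3 also held 1 TEAD motif, which overlaps no other match. Over all 28 windows 15 held a GC box, or 53.6%, against 33.1% of 33469 promoters of the same length. The TEAD motif was in 7 of 28 windows and 14.2% of all promoters, TATAAA in 2 and 14.2%, the AP-1 motif in 2 and 7.33%, and the CArG box in 2 and 1.64%. GC content was 73.0% for Lama5, 67.0% for Itga3, 65.7% for Itga11 and 60.3% for Itga8. These matches describe letters in a window and were set against no expression test. Among the genes without an entry were Itga6, Itga7, Itgad, Itgal, Itgb2, Itgb3, Itgb4 and Lamb2.

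Because FPKM are scaled by length, the chains of a class can be set beside each other within a library. Such a share does not move when all values of a library are multiplied by the same factor. The gene lengths used are not stated, so the size of a share and the order of chains by share rest on lengths that could not be checked. Summed integrin alpha FPKM were 298.9 ± 3.78 in the knockdown and 261.8 ± 3.82 in controls, and after median-ratio scaling 281.6 ± 3.97 in the knockdown and 276 ± 4.77 in controls. Laminin-binding alpha chains held 51.4%, 52.4% and 52.5% of this sum in the knockdown libraries, against 23.4%, 24.3% and 25.4% in the controls. Collagen-binding chains held 5.87%, 6.11% and 5.70% in the knockdown libraries, against 22.2%, 21.1% and 21.8% in the controls. These groupings of chains were summed after their values were seen and carry no test. Among single chains, Itga6 held 18.6% ± 0.654 in the knockdown and 2.93% ± 0.25 in controls, and Itga7 held 24.7% ± 0.696 in the knockdown and 14.3% ± 0.774 in controls. Itga8 held 1.32% ± 0.0525 in the knockdown and 13.9% ± 0.212 in controls. Itga1 held 4.36% ± 0.0934 in the knockdown and 13.7% ± 0.827 in controls, and Itga11 held 0.969% ± 0.139 in the knockdown and 7.69% ± 0.806 in controls. Itga7 had the largest share of the alpha sum in the knockdown, while in the controls Itga7, Itga8, Itga1 and Itgav lay between 12.9% and 15.0% with overlapping ranges. Itgb1 held 83.8% ± 0.405 of the integrin beta sum in the knockdown and 80.5% ± 0.472 in controls.

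Laminin shares moved in the alpha and beta classes. Lama5 held 31.2% ± 1.34 of the laminin alpha sum in the knockdown and 22.2% ± 1.27 in controls, and Lama4 held 34.2% ± 0.402 in the knockdown and 45.7% ± 0.71 in controls. Lama2 held 34.4% ± 1.36 in the knockdown and 31.4% ± 0.534 in controls, so that these 3 chains had near-equal shares in the knockdown, while Lama4 led in the controls. Lamb2 held 34.5% ± 0.405 of the beta sum in the knockdown and 24.95% ± 0.199 in controls, and Lamb1 held 62.6% ± 0.239 in the knockdown and 69.9% ± 0.455 in controls. The summed laminin alpha FPKM themselves were 163.6 ± 2.98 in the knockdown and 163.8 ± 4.57 in controls as deposited, but after median-ratio scaling they were 154 ± 3.20 in the knockdown and 173 ± 4.90 in controls. The total therefore depended on the scaling. Median-ratio scaling divides a library by 1 factor, so it cannot alter a share within that library. Quantile normalization is not such a factor, and shares were not computed after it. A two-sided exact permutation test gave p = 0.1 for each of the 20 shares tested, the smallest p that 3 libraries against 3 allow, and 0.1 after Benjamini-Hochberg adjustment. None of the 20 had overlapping groups, and in FPKM 82.3% of all features tested had none either. Shares of a class are parts of 1 sum, so the 20 are not separate observations.

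**Figure D3:**
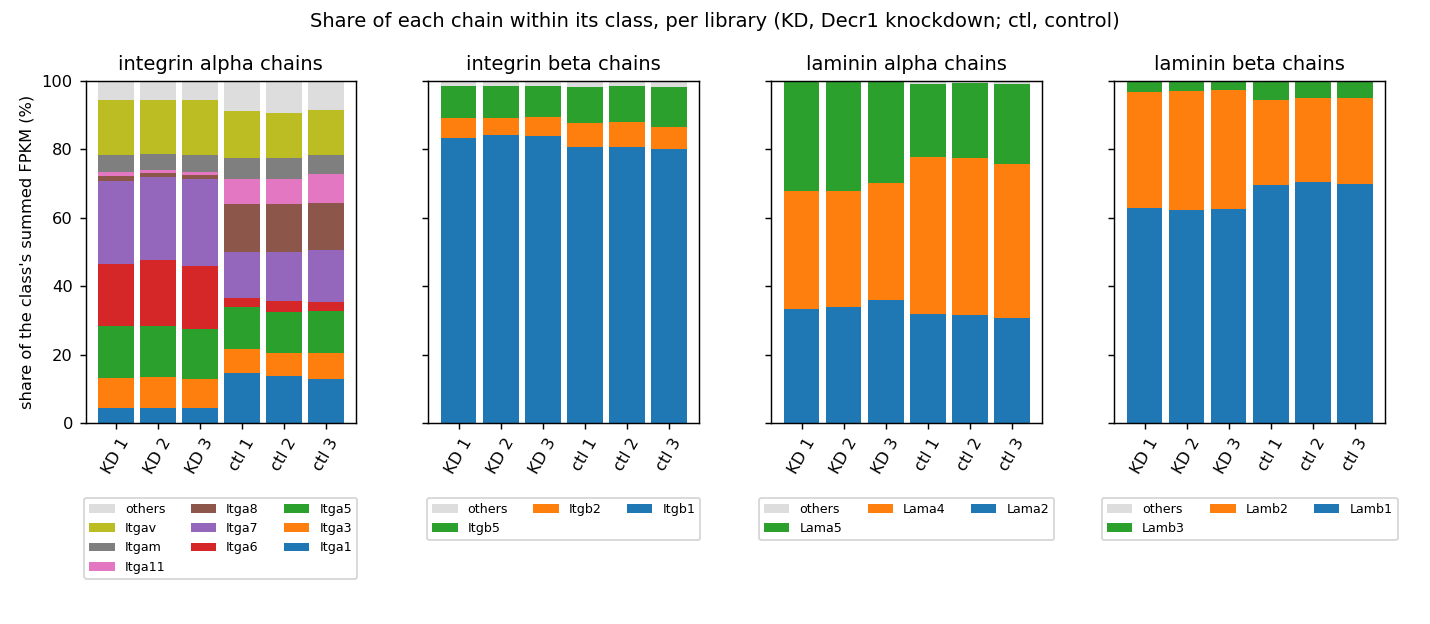
Share (%) of each chain in the summed FPKM of its class, 1 bar per library, with Decr1 knockdown libraries left of controls and chains under 5% in every library pooled as others. In the integrin alpha panel Itga6 and Itga7 widen and Itga8, Itga11 and Itga1 narrow in the knockdown, and in the laminin alpha panel Lama5 widens and Lama4 narrows.

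Integrins act through adaptors on their cytoplasmic side, and laminins assemble with other basement membrane proteins and also bind receptors that are not integrins. Of 30 adaptor and kinase genes 29 were tested, and 14 rose, 8 fell and 7 did not pass, or 75.9% called against 80.8% of all features. After median-ratio scaling 10 rose and 12 fell, so the balance of this list depended on the scaling. Itgb1bp2 encodes melusin, a muscle protein that binds the β1 tail, and fell to 7.48 ± 1.499 FPKM in the knockdown, against 28.6 ± 0.983 FPKM in controls (log2 fold change -1.82, SE 0.10, adjusted p = 1.02e-07 by limma). Kank2, an adaptor at the rim of adhesions, fell to 24.2 ± 0.751 FPKM in the knockdown, against 47.6 ± 0.871 FPKM in controls. The scaffold gene Bcar1 rose, with 53.7 ± 1.91 FPKM in the knockdown and 28.3 ± 1.24 FPKM in controls. Zyx, the gene of the adhesion protein zyxin, rose too, with 126 ± 1.02 FPKM in the knockdown and 76.0 ± 1.97 FPKM in controls. Beside the fall of Itgb1bp2, 10 of 15 cardiomyocyte markers fell and 5 rose, and the median of that list was -0.45. A link between them was not tested.

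All 15 basement membrane partner genes were called, where 80.8% of all features were called. Of these genes 9 were higher and 6 lower, and the same numbers were called after median-ratio scaling. The 2 nidogen genes, whose products link laminin to collagen IV, moved in opposite directions. Nid1 stood at 26.4 ± 1.32 FPKM in the knockdown and 187 ± 4.42 FPKM in controls (log2 fold change -2.78, SE 0.05, adjusted p = 5.36e-11 by limma). Nid2 stood at 47.4 ± 1.01 FPKM in the knockdown and 12.6 ± 0.293 FPKM in controls (log2 fold change 1.84, SE 0.05, adjusted p = 3.92e-10 by limma). Nid2 was therefore above Nid1 in the knockdown and far below it in controls. The collagen IV gene Col4a2 fell to 232 ± 6.63 FPKM in the knockdown, against 671 ± 31.8 FPKM in controls, and Col15a1 to 2.06 ± 0.269 FPKM in the knockdown, against 57.7 ± 3.99 FPKM in controls. Beside these falls and the rise of Nid2, the fibroblast markers fell, with a median of -3.40 on the log2 scale. The epicardial and mesothelial markers tested fell too, with a median of -2.24. A link to the partner genes was not tested.

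Laminin receptors other than integrins were called in 16 of 18 cases, 9 higher and 7 lower, and after median-ratio scaling 9 rose and 8 fell. Bcam, which encodes a receptor for α5-containing laminin, rose, with 98.5 ± 2.47 FPKM in the knockdown and 41.4 ± 1.29 FPKM in controls (log2 fold change 1.23, SE 0.04, adjusted p = 3.74e-09 by limma). The syndecan genes Sdc2 and Sdc4 fell. Sdc2 stood at 30.9 ± 1.53 FPKM in the knockdown and 87.8 ± 2.00 FPKM in controls, and Sdc4 at 26.1 ± 1.80 FPKM in the knockdown and 70.3 ± 2.61 FPKM in controls. Calls in the lists of partners and markers are to be read against the 80.8% of all features that were called.

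**Figure D4:**
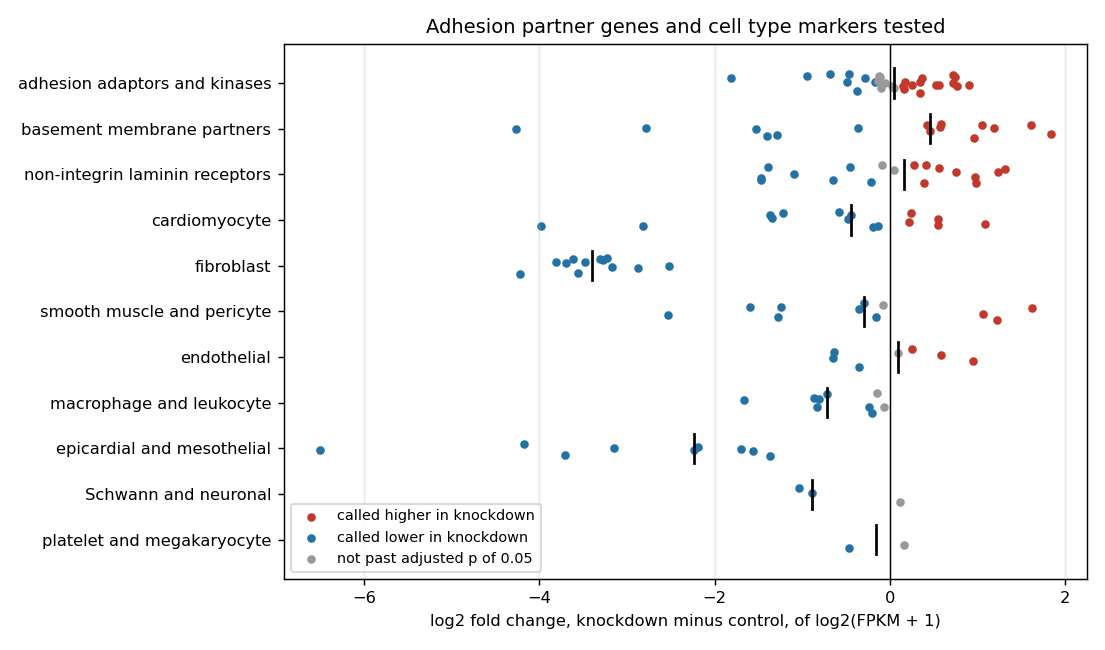
Log2 fold change, knockdown minus control, of the tested genes of 3 adhesion lists and 8 cell type marker lists, with 1 point per gene and a black bar at the median of each list. Basement membrane partners spread widely to both sides, all 12 fibroblast markers lie below -2, and cardiomyocyte markers have a median of -0.45.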

How the data were processed

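The values are FPKM by gene symbol as deposited by the authors, in a single table that has 1 column for each of 6 libraries, per the file headers. Tools listed in the submitters' processing notes are fastp, HISAT2 and HTSeq, with no version. Sources used here do not give the genome build, the annotation, the gene lengths or how strand was handled. By RefSeq GRCr8, 18 of the 37 genes overlap another gene and 6 a protein-coding one, and without a stated strand handling their reads cannot be told apart.

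Here, depths and reads were recovered from the FPKM, whose values within a gene are whole multiples of 1 step. Implied gene lengths of the 37 genes were 3.17 to 18.5 kb. Values were transformed as log2(FPKM + 1), and those features whose mean reached 1 FPKM were tested with limma 3.58.1 (lmFit, eBayes with trend) in R 4.3.3, without covariates, in 1 comparison, two-sided, with Benjamini-Hochberg adjustment. The labels put all libraries in batch 1. Count models were not used, since the values are FPKM. Both the fit and the recovery of reads were tested on simulated data. In the simulated fit most features were left unchanged, so it could not check the calls that depend on the scaling. Python 3.11.15, numpy 2.4.6, pandas 2.3.3 and matplotlib 3.10.9 were used.

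Alternatives were pseudocounts of 0.1 and 0.5, no filter, a filter at 5 FPKM, median-ratio scaling, quantile normalization, no trend, a replicate block and leaving out each library. Members are named, with Decr1 and up to 4 genes of each of 3 partner lists with the smallest adjusted p, and some of these results are not reported here. All 155 entries of the 3 partner and 8 marker lists were found in the table. Members and lists were chosen with earlier results of these data known.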

Additional observations from a re-analysis of the deposited data

How the results depend on the processing

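Across 14 alternatives, 8 to 11 integrin and laminin genes were called higher and 10 to 16 lower, against 11 and 12 as reported, and 6846 to 11970 features were called in all. The 16 falls came without the filter on low values, which tests all 37 genes, and the 10 with a filter at 5 FPKM, which tests 22. Leaving out 1 library at a time gave 9 to 11 higher and 12 to 13 lower. Only Itgb1 and Lama2 changed sign, both after median-ratio scaling, at -0.070 and -0.036, and neither was then past the threshold. Besides these, Lamb2 lost its call under both scalings, and Itgam, Itgax and Itgb3 gained one. Itgb3 was also called lower without control replicate 2 or knockdown replicate 1, at -0.24 and -0.25, and Itgax without knockdown replicate 3, at -0.21. In the replicate block fit 9 rose and 12 fell, with Itgb1 and Lama2 losing their calls. Same-numbered libraries did not deviate together, with correlations of -0.0027, 0.068 and -0.071, so the numbers were not taken as pairs, and not every library correlated best with its own number. Each of the 20 chain shares tested kept its direction when any 1 library was left out. This was bound to happen, since none of them had overlapping groups, so it adds nothing to the shares. The 10 genes not tested were under the FPKM filter, which is not a limit of reads for all of them. Lama3, for example, had 146 to 194 reads in knockdown libraries and 157 to 202 in controls. Itgad and Lamc3, with at most 3 reads in any library, are given no direction.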
